A study of Mus musculus with 2 samples.

Results

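Chd1, Chd2, Chd3, Chd4, Chd7, Chd8 and Chd9 encode chromatin remodellers of the CHD family (chromodomain helicase DNA-binding). These 7 genes were taken by symbol from the 27998 genes of the deposited matrices, and all 7 were found and reached 10 CPM in 1 library or both, CPM being the UMIs of a gene per 1000000 UMIs of the library. The set was chosen with earlier results of the same data known, in which Chd3 stood out by its ratio between the tissues. The ratios over whole libraries are therefore a description and support nothing. The tissue contrasts within gates, thinned cells and other subsets divide the same UMIs, so they are a description too. The family members Chd5, Chd6 and Chd1l were not in the set, and their values are given beside it.

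CHD proteins use the energy of ATP to slide, space or evict nucleosomes, and paired chromodomains let several of them dock on methylated histone tails. Chd1 and Chd2 act mainly along transcribed genes. Chd3, Chd4 and the mostly neuronal Chd5 are alternative motors of the NuRD complex (nucleosome remodelling and deacetylation), which joins a remodeller to histone deacetylases; a NuRD complex is known to hold 1 of these motors at a time. Chd6, Chd7, Chd8 and Chd9 form a further branch, in which Chd7 is known from enhancers and from CHARGE syndrome and Chd8 from autism and from binding β-catenin. In lymphocyte development Chd4 is the best studied of them, as a partner of Ikaros family factors.

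The cells were α4β7-expressing lymphoid progenitors (αLPs), from which innate lymphoid cells can arise, of wild-type B6 mice with no treatment. One group was 1 library from fetal liver at E14.5 (an embryonic day, per the series' design text) and the other 1 library from adult bone marrow. The sort of both tissues asked for CD45, CD127 and α4β7 on the surface and for the absence of Flt3, CD25 and the lineage markers. The labels of both samples, the fetal one included, carry an age of 6 to 8 weeks, and they give the same batch. How many animals were pooled is not given in the sources used here. With 1 library per tissue there are no replicates, so no test was made between tissues, and every interval below is a 95% interval that covers counting error only.

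Cells with at least 500 detected genes and at most 10% of UMIs (unique molecular identifiers, which mark distinct captured RNA molecules) on mitochondrially encoded genes were kept. That left 8583 of 8946 fetal liver barcodes with 91285900 UMIs and 7258 of 7367 bone marrow barcodes with 29941097 UMIs. The median kept cell of fetal liver held 9294 UMIs and that of bone marrow 3447.5, a 2.70-fold gap, and 19 barcodes occurred in both libraries. Genes of the sort were present, with Il7r (CD127) at 178 and 417, Ptprc (CD45) at 78.6 and 135, Itga4 at 172 and 262 and Itgb7 at 47.9 and 61.8 CPM (fetal liver first, here and below). Flt3 was at 1.45 and 1.20 and Il2ra (CD25) at 1.08 and 7.78. The libraries also differed in other respects that moved with tissue. Fos, an immediate early gene, was at 651 and 2940, the nuclear RNA Malat1 at 11159 and 36117, and the division gene Mki67 at 48.4 and 18.4 CPM. Xist, which is expressed from an inactive X chromosome, had 23018 fetal liver and 2 bone marrow UMIs. The Y-linked Ddx3y was at 19.7 and 74.6 CPM, so the libraries differed in the sex of their cells. The part of these differences in the CHD results was not tested, except where a value without the cells in question is given below.

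To show how close the 7 genes are at the level of sequence, and so how far their reads could be confused, the coding stretch around the DEAH box of the ATPase motor is printed for each. The sequences are the coding strand of GENCODE M21 transcripts on mm10, 60 bases each, with the 12 bases of the DEAH box in capitals.
Chd3: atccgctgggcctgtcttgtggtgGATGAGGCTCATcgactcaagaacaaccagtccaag
Chd4: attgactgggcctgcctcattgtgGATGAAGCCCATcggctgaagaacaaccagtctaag
Chd1: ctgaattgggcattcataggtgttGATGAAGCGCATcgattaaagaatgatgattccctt
Chd2: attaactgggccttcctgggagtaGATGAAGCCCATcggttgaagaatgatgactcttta
Chd7: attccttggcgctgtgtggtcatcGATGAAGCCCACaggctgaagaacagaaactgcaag
Chd8: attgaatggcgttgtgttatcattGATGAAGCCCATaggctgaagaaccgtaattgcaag
Chd9: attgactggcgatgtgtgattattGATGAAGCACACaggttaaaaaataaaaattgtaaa

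In Chd3 the box lies in exon 16 at chr11:69356962-69356973 on the minus strand. Of the 60 bases, 48 were identical between Chd3 and its NuRD counterpart Chd4, which carries the box in exon 17 at chr6:125108761-125108772. Chd7 shared 39 bases with Chd3, Chd2 and Chd8 shared 37 each, Chd1 shared 35 and Chd9 shared 33. Even in this conserved motor stretch every paralog thus differed from Chd3 at several bases. Over the coding transcripts of Chd3, 8 of 7394 distinct 31-base words also occurred in Chd4 and 0 in the other 5 genes. In the last 500 bases of those transcripts, the end that a 3' library reads, 0 of 2030 words were shared with any of the 6. Other causes of misassigned reads, such as sequencing errors, were not measured. The Chd3 gene spans chr11:69343273-69369406 on the minus strand and its chosen transcript has 40 exons.

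Chd3 gave 1073 UMIs in the fetal liver library and 5952 in the other, although the bone marrow library was the shallower. This is 11.8 CPM (interval 11.1 to 12.5) against 199 CPM (194 to 204). The 2 intervals lie far apart, and the log2 ratio, always given as fetal liver over bone marrow, was -4.08 (interval -4.18 to -3.99), a 16.9-fold higher level in bone marrow. Among the 6938 genes that reached 10 CPM in either library, Chd3 had the 12th lowest ratio, between B3galt2 at -4.31 and Stxbp6 at -3.96. The UMIs did not sit in a few cells: no cell held more than 6 (fetal liver) or 10 (bone marrow), and the 10 richest cells held 3.82% and 1.31% of all Chd3 UMIs.

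Chd4, the other NuRD motor, gave 90.7 CPM (8279 UMIs) in fetal liver against 130 CPM (3900 UMIs). Its log2 ratio was -0.52 (interval -0.58 to -0.47), so both motors were higher in bone marrow but by very different factors. For every 100 UMIs of Chd4 the fetal liver library held 13.0 of Chd3 (interval 12.2 to 13.8) and the bone marrow library 153 (147 to 159). Over the whole libraries Chd4 UMIs thus outnumbered those of Chd3 in fetal liver, and Chd3 UMIs those of Chd4 in bone marrow. The second order did not hold in all subsets of the bone marrow cells, as given below. Chd5 had 4 UMIs in each library, close to the limit that 3 counts set, which is 0.0329 CPM for the deeper fetal liver library and 0.100 CPM for the other.

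Chd1, which follows elongating RNA polymerase, was at 55.5 CPM (5066 UMIs) in fetal liver against 61.3 CPM (1836 UMIs). Its log2 ratio of -0.14 (interval -0.22 to -0.07) was the smallest of the 7 in size, and its sign was reversed to 0.02 under a median-ratio scaling of the libraries. Chd2, its closest relative, was at 50.4 CPM (4605 UMIs) against 110 CPM (3299 UMIs), and the log2 ratio was -1.13 (interval -1.19 to -1.06). The pair had nearby levels in fetal liver and differed in bone marrow, where Chd2 was the higher. Reads from a gene and an overlapping antisense gene can be told apart only where strand was used in counting, which the sources used here do not state. Chd2 overlaps the antisense model RP23-32A8.5, with 78 and 191 UMIs in the same order of libraries.

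Chd7 was the only member with a lower level in bone marrow. It gave 11.7 CPM (1064 UMIs) in fetal liver against 4.41 CPM (132 UMIs), so that the log2 ratio was 1.40 (interval 1.14 to 1.67) and the fold 2.64. Chd8 was at 21.3 CPM (1948 UMIs) and 30.2 CPM (903 UMIs), with a log2 ratio of -0.50 (interval -0.61 to -0.38). Chd9, a less studied relative of both, was at 17.9 CPM (1631 UMIs) and 37.1 CPM (1110 UMIs), with a log2 ratio of -1.05 (interval -1.16 to -0.94). Within this branch the ratios thus ran from clearly higher in fetal liver to about 2-fold higher in bone marrow. Chd6, outside the set, was at 22.2 and 37.0 CPM with a ratio of -0.73, near Chd8 and Chd9, and Chd1l was at 7.00 and 8.28 CPM.

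Set against all genes, 3 of the 7 members (Chd3, Chd2 and Chd9) exceeded their fetal liver level by 2-fold or more in bone marrow, where 10.9% of the 6938 genes did. A single member (Chd7) exceeded its bone marrow level by as much in fetal liver, where 7.25% of the genes did. Nothing is read from these counts, because the members were chosen on the same contrast, and Chd2 and Chd9 stood close to the limit: under both other scalings, a trimmed mean (TMM) and the median ratio, Chd3 alone passed it. The median log2 ratio was -0.51 over the 6 paralogs of Chd3 and 0.01 over all 6938 genes. Chd3 lay 3.57 log2 units below the paralog median, an 11.9-fold gap that no common scaling of the libraries can change, since it compares genes within the same libraries.

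**Figure D1:**
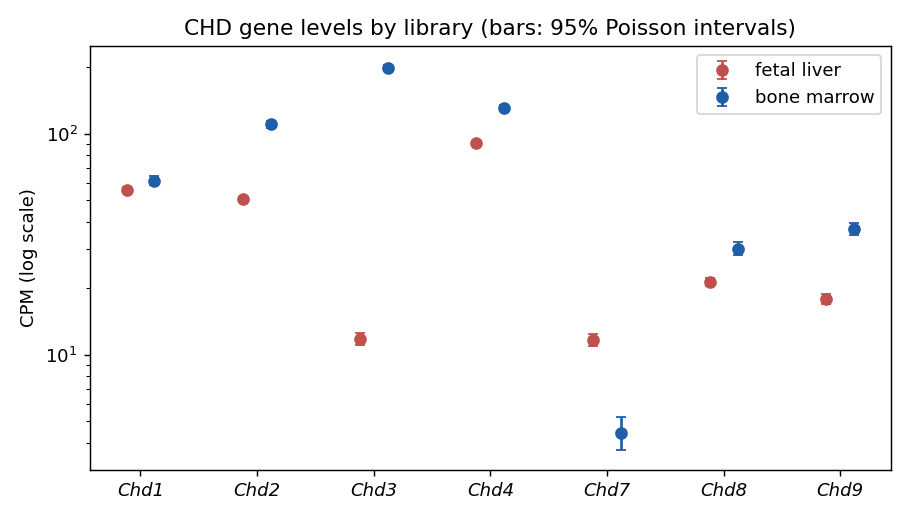
Level of each CHD gene in CPM (log axis) in the fetal liver and the bone marrow library, with 95% Poisson intervals that cover counting error only. Chd3 is near the bottom in fetal liver (11.8 CPM) and at the top in bone marrow (199 CPM), and Chd7 is the only gene with the fetal liver point above.

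The order of the levels therefore differed between the libraries. One UMI stands for 1 captured transcript end whatever the length of the transcript, so CPM values of different genes were ranked without division by length. In fetal liver the order was Chd4, Chd1, Chd2, Chd8, Chd9, Chd3 and Chd7, and among neighbours only the intervals of Chd3 and Chd7 overlapped. In bone marrow it was Chd3, Chd4, Chd2, Chd1, Chd9, Chd8 and Chd7, with no overlap between neighbours. Chd3 gave 4.53% of the 23666 UMIs of the 7 genes in fetal liver (exact binomial interval 4.27 to 4.81%) and 34.7% of 17132 in bone marrow (34.0 to 35.5%). Chd4 went from 35.0% to 22.8% and Chd1 from 21.4% to 10.7% of the same sums, while Chd2, at 19.5% and 19.3%, and Chd9, at 6.89% and 6.48%, held similar shares.

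A property that the choice of members did not use is transcript length. The longest annotated transcripts of the 7 genes measure 6697 to 12008 bases, and long genes as a whole were shifted between these libraries. The length classes were set after the ratios had been seen. Among 922 genes with a longest transcript of at least 6000 bases the median log2 ratio was -0.53, and 19.6% had a 2-fold or larger excess in bone marrow against 2.49% with one in fetal liver. In 1879 genes with less than 2000 bases the median was 0.30, and the same shares were 7.18% and 11.7%. The paralog median of -0.51 thus equals, to within 0.1, that of genes of like length. Of the 922 long genes 3, Chd3 included, had a ratio as low as that of Chd3, which was the 12th lowest of all 6938 genes. Nothing is read from this count, because Chd3 was chosen on the same ratio. What produces the shift of long genes was not tested.

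**Figure D2:**
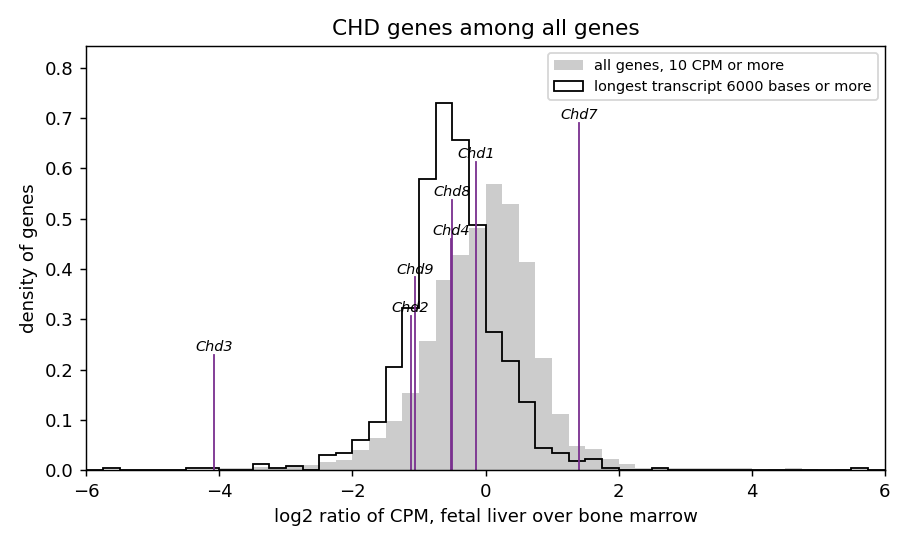
Log2 ratio of CPM, fetal liver over bone marrow (horizontal axis), as the density of the 6938 genes that reached 10 CPM (grey) and of the genes with a longest transcript of at least 6000 bases (black outline), with the 7 CHD genes as vertical lines whose heights have no meaning. Long genes sit to the left of all genes, the paralogs other than Chd7 lie within their bulk, and Chd3 at -4.08 lies in the far left tail.

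How many cells held a transcript was compared at equal depth, because the fetal liver cells were deeper. Each cell was thinned at random to 2000 UMIs, which left out 131 fetal liver and 1335 bone marrow cells that were shallower. A Chd3 UMI was then found in 2.12% of 8452 fetal liver cells (exact Clopper-Pearson interval 1.82 to 2.45%) and in 32.7% of 5923 bone marrow cells (31.5 to 34.0%). Unthinned, the shares were 9.72% and 50.2%. Chd4 was found in 17.0% and 23.1% of the thinned cells, Chd2 in 9.76% and 20.1%, Chd1 in 9.82% and 11.1%, Chd8 in 4.21% and 6.21%, Chd9 in 3.73% and 7.21%, and Chd7 in 2.48% and 0.844%. In the unthinned cells Chd4 had gone the other way, with 53.5% in fetal liver and 38.4% in bone marrow, as had Chd1, Chd2, Chd8 and Chd9, while CPM and thinned shares had the same direction for all 7 genes. None of the cells is known to lack CHD transcripts, so the share that free RNA in the droplets gives was not measured.

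Both libraries hold several kinds of cells, so the contrast was also described within cells picked by the same marker genes. These cells hold part of the UMIs on which the members were chosen, so their ratios are no independent support. A gate took every cell with at least 2 UMIs over its genes, and it was compared where each library had at least 50 such cells. Gates are named by their genes, since genes of the same lineages that the gates did not use followed unevenly. Of these check genes, 7 of 10 in fetal liver and 8 of 10 in bone marrow were at least 2-fold higher inside the gate of Il1rl1 and Il17rb, receptors of type 2 innate lymphoid cells. For the gate of Tbx21, Eomes and Ncr1, genes of natural killer cells and type 1 innate lymphoid cells, it was 6 of 10 in both. The gate of Dntt, Rag1 and Rag2, the recombination genes of lymphoid progenitors, had 6 of 8 and 4 of 8, and that of Zbtb16, the gene of PLZF in innate lymphoid precursors, 0 of 8 and 2 of 8. For the B cell genes Cd79a, Cd79b and Ebf1 it was 6 of 7 detected check genes in fetal liver and 2 of 5 in bone marrow, so that gate picked different cells in the 2 libraries. For the division genes Mki67 and Top2a it was 8 of 8 in both.

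Chd3 was lower in fetal liver within every gate compared. In the Il1rl1 and Il17rb gate 252 fetal liver cells had Chd3 at 25.7 CPM and 511 bone marrow cells at 332 CPM, and the log2 ratio was -3.69 (interval -4.02 to -3.38). In the Zbtb16 gate, with 518 and 368 cells, it was at 12.0 and 169 CPM, a ratio of -3.82. In the Tbx21, Eomes and Ncr1 gate, with 331 and 211 cells, it was at 9.55 and 132 CPM, a ratio of -3.79. These 3 gates, the ones with the most cells in the smaller library, gave ratios close to each other at this gate minimum. With at least 3 UMIs of the gate genes they lay further apart, at -3.04, -4.21 and -3.46 in the same order.

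The B cell gene gate held 893 and 84 cells at 9.81 and 143 CPM, a ratio of -3.86. In the Dntt, Rag1 and Rag2 gate 76 fetal liver cells held only 5 Chd3 UMIs (4.98 CPM), against 85.1 CPM in 425 bone marrow cells, so its ratio of -4.10 has a wide interval of -5.73 to -2.86. Over the 5 lineage gates the median ratio was -3.82, and the bone marrow level was 12.9- to 17.1-fold higher. Cells in no lineage gate, 6496 and 5696 in number, gave -4.13 from levels of 12.2 and 213 CPM. The gates overlapped: 3.02% of fetal liver cells and 0.675% of bone marrow cells fell in 2 or more. A further gate of myeloid genes (Mpo, Elane, Lyz2 and Csf1r) took 291 fetal liver cells, where Chd3 was lowest at 3.75 CPM, and 12 bone marrow cells, too few to compare.

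The paralogs other than Chd7 had ratios nearer to 0 in the same gates. The median ratio over all 6 paralogs ran from -0.59 in the Tbx21, Eomes and Ncr1 gate to 0.09 in the Dntt, Rag1 and Rag2 gate. Chd2 was lower in fetal liver in all 5, from -1.30 in the Il1rl1 and Il17rb gate to -0.25 in the Dntt, Rag1 and Rag2 gate, where its interval of -0.65 to 0.14 holds 0. Chd4 ran from -0.79 to -0.05, and Chd1 from -0.41 to 0.25. Within bone marrow Chd3 was not above Chd4 in every gate. In the Dntt, Rag1 and Rag2 gate Chd3 was at 85.1 CPM (interval 75.3 to 95.8) and Chd4 at 112 CPM (100 to 124). In the Zbtb16, the Tbx21, Eomes and Ncr1, the B cell gene and the Mki67 and Top2a gates their intervals overlapped. In the Il1rl1 and Il17rb gate Chd3 was higher, at 332 against 146 CPM. Chd9 ran from -1.23 in the Il1rl1 and Il17rb gate to 0.24 in the Dntt, Rag1 and Rag2 gate, with 39 fetal liver UMIs in the last. Chd7 was sparse in the bone marrow gates, with 16 UMIs in the richest; it had 88 fetal liver and 5 bone marrow UMIs in the Zbtb16 gate, 59 and 1 in the Tbx21, Eomes and Ncr1 gate, and 13 and 0 in the Dntt, Rag1 and Rag2 gate. Its ratio was 2.11 in the first (interval 0.83 to 3.77) and 3.97 in the second (1.44 to 9.30), where Chd3 was at -3.79. Within bone marrow Chd7 was at 9.43 CPM in the Il1rl1 and Il17rb gate (interval 5.39 to 15.3), above the Dntt, Rag1 and Rag2 gate, where 0 UMIs have an upper limit of 1.15 CPM, and the Tbx21, Eomes and Ncr1 gate, at 0.782 CPM (0.0198 to 4.36).

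**Figure D3:**
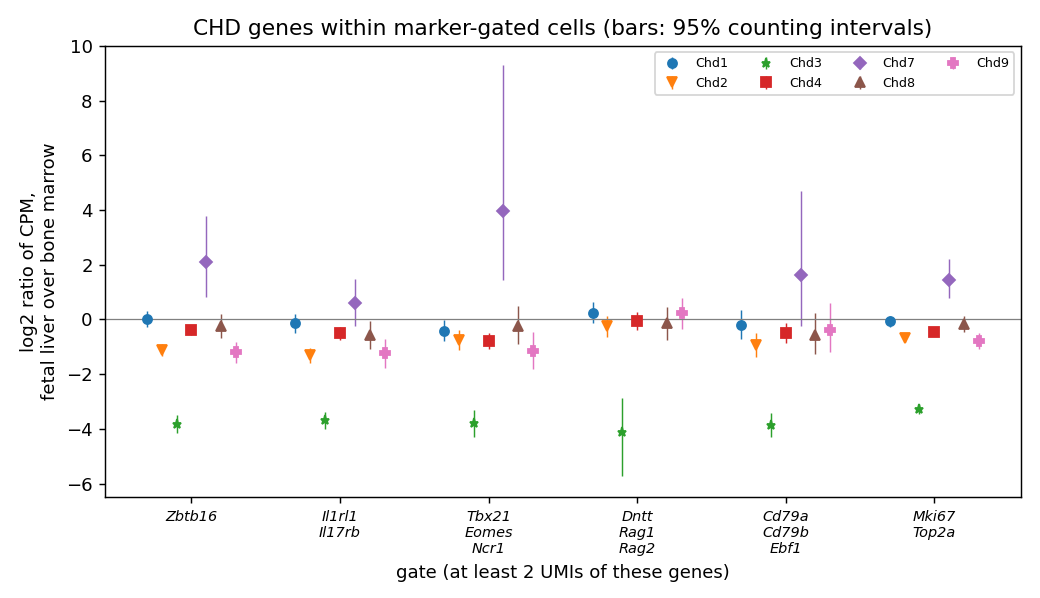
Log2 ratio of CPM, fetal liver over bone marrow, of each CHD gene within 6 marker gates (columns), with 95% counting intervals. Chd3 (stars) lies between -4.10 and -3.27 in each gate and apart from the 6 paralogs; Chd7 in the Dntt, Rag1 and Rag2 gate is not drawn, since it had 0 bone marrow UMIs.

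Dividing cells were more frequent in fetal liver, with 2907 cells in the Mki67 and Top2a gate against 481 in bone marrow. Within that gate Chd3 was at 12.0 and 116 CPM, a ratio of -3.27 (interval -3.45 to -3.09), and in cells with no UMI of Mki67, Top2a, Cdk1 or Ccnb1 it was at 11.4 and 224 CPM, a ratio of -4.29. The contrast was thus found in both classes and was nearer to 0 in dividing cells. In cells with a Y-linked UMI and no Xist UMI, 2639 in fetal liver and 3274 in bone marrow, the Chd3 ratio was -3.87.

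In fetal liver, over 6 gates, the highest gate of Chd3 was 6.86-fold above its lowest, the myeloid gene gate. The other 6 genes had 1.61- to 3.66-fold over the same gates. In bone marrow, over 5 gates without the myeloid one, it was 3.90-fold, against 1.13- to 2.07-fold for the 5 other genes that had UMIs in every gate. Chd7, with 0 UMIs in its lowest gate, has no such fold. The folds of the 2 libraries rest on unlike sets of gates and are not compared. The Il1rl1 and Il17rb gate was the highest for Chd3 in both libraries. Against the cells outside the gate its log2 difference was 1.20 in fetal liver (interval 0.89 to 1.51) and 0.80 in bone marrow (0.67 to 0.93). The Dntt, Rag1 and Rag2 gate was low in both, at -1.25 (interval -2.88 to -0.02) and -1.32 (-1.50 to -1.14).

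**Figure D4:**
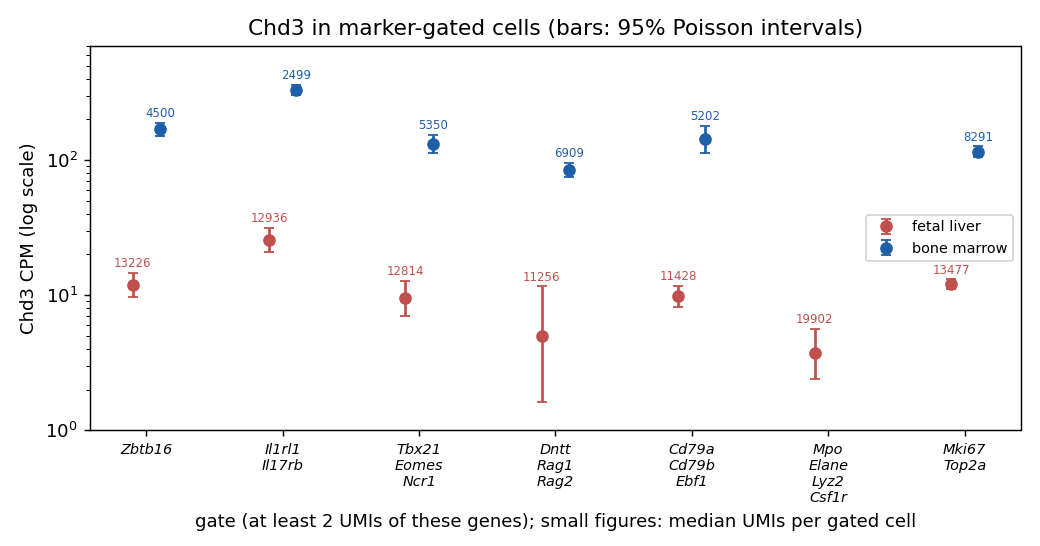
Chd3 level in CPM (log axis) in each marker gate of at least 50 cells in the fetal liver and the bone marrow library, with 95% Poisson intervals and, as small figures, the median UMIs per gated cell. Every bone marrow point (85.1 to 332 CPM) lies above every fetal liver point (3.75 to 25.7 CPM), and among the bone marrow gates the shallowest has the highest level.

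In bone marrow the order of the 5 lineage gates followed the depth of their cells. The median UMIs per cell were 2499 in the Il1rl1 and Il17rb gate and 6909 in the Dntt, Rag1 and Rag2 gate, the ends of the Chd3 order among the 5. Depth was therefore examined by itself. Bone marrow cells with under 2000 UMIs had Chd3 at 333 CPM, those with 2000 to 5000 at 246, those with 5000 to 10000 at 148 and those with at least 10000 at 84.3 CPM. No such fall was found in fetal liver, where the same classes had 5.34 CPM (1 UMI in 131 cells), 8.70, 11.8 and 12.0 CPM. In the deepest bone marrow class Chd4 was at 119 CPM (interval 108 to 132), above Chd3 (74.6 to 94.9).

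The contrast of cells with 2000 to 5000 UMIs against cells with at least 10000 was then computed for all genes of each library, and it does not enter the choice of members. In bone marrow the log2 difference was 1.55 for Chd3 (interval 1.37 to 1.73), 0.91 for Chd2, 0.70 for Chd9, 0.54 for Chd8, 0.20 for Chd4 and -0.02 for Chd1, beside a median of 0.08 over 7079 genes. Of the 6 members with 10 CPM or more there, 1 (Chd3) was at least 2-fold higher in the shallower cells, where 12.4% of all genes were. Chd7 was under that minimum, with 64 UMIs in the shallower and 3 in the deeper cells. In fetal liver Chd3 differed by -0.46 (interval -0.96 to -0.0003), Chd2 by 0.56, Chd9 by 0.54, Chd7 by 0.19, Chd4 by 0.15, Chd8 by 0.08 and Chd1 by -0.10. None of the 7 was at least 2-fold higher in the shallower fetal liver cells, where 10.5% of 6840 genes were, and the median was 0.10. Chd2 and Chd9 were thus higher in shallow cells of both libraries, and Chd1 and Chd4 were within 0.20 of 0. Chd3 was higher in shallow bone marrow cells, while its fetal liver difference was negative with an interval that nearly reached 0. Whether the 2 Chd3 differences themselves differ could not be tested with 1 library each.

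**Figure D5:**
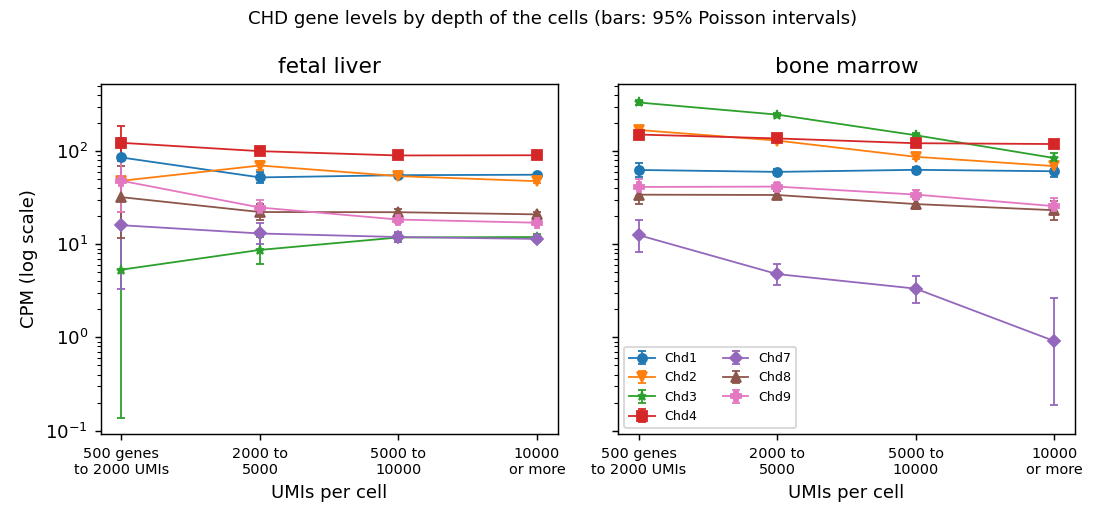
Level of the 7 CHD genes in CPM (log axis) in 4 classes of cells by UMIs per cell, in fetal liver (left) and bone marrow (right), with 95% Poisson intervals. In bone marrow Chd3 goes from 333 CPM in the shallowest to 84.3 CPM in the deepest class and Chd1 is level; in fetal liver Chd3 is at 12.0 CPM in the deepest class.

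In bone marrow the median was 8291 UMIs in the Mki67 and Top2a gate and 3169 in cells without a division UMI. Division was therefore held apart at like depth. Among bone marrow cells with 2000 to 5000 UMIs Chd3 was at 250 CPM without a division UMI (interval 241 to 259) and at 196 CPM in the Mki67 and Top2a gate (145 to 260). Among those with 5000 to 10000 UMIs it was at 155 and 147 CPM, with overlapping intervals. At like depth the levels of the 2 classes thus came near each other. Without a division UMI the intervals of the 2 depth classes lay apart, the deeper class at 146 to 164 CPM. In the Mki67 and Top2a gate they overlapped, the deeper class at 131 to 165 CPM. Gated cells with at least 10000 UMIs were at 76.1 CPM (64.6 to 88.9), below both. In cells of the same depth, 2000 to 5000 UMIs, the tissue ratio of Chd3 was -4.83, further from 0 than over all cells.

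The gates were also taken again within bone marrow cells of 2000 to 5000 UMIs, at 1 UMI of the gate genes so that enough cells remained. Chd3 was at 335 CPM in the Il1rl1 and Il17rb gate, 244 in the B cell gene gate, 195 in the Zbtb16 gate, 192 in the Dntt, Rag1 and Rag2 gate and 165 in the Tbx21, Eomes and Ncr1 gate. The interval of the first, 313 to 358 CPM, lies above those of all the others, while the intervals of the Zbtb16, the Dntt, Rag1 and Rag2 and the Tbx21, Eomes and Ncr1 gates overlap. Depth was still not equal inside the window: the median was 2942.5 UMIs in the Il1rl1 and Il17rb gate and 3552.5 to 3798.5 in the other lineage gates named. The window and the lower gate minimum were applied together, so their parts in the order of the gates cannot be told apart.

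Partners of the CHD proteins were read from lists that do not depend on these ratios but were chosen with earlier results known. Of 12 NuRD partners, all with at least 10 CPM, 11 were within 2-fold between the libraries, 1 lay beyond it toward bone marrow and 0 toward fetal liver, and their median log2 ratio was 0.14. Over all genes 10.9% lay beyond 2-fold toward bone marrow and 7.25% toward fetal liver, so 1 of 12 is near the background. The exception was Mta3, a scaffold subunit, at 56.9 and 129 CPM (ratio -1.18). Gatad2b, a bridging subunit, was at 30.9 and 55.3 CPM (-0.84), and the histone chaperone Rbbp7 at 158 and 88.4 CPM (0.84). No partner on the list came near the ratio of Chd3. Nothing is read from this, since Chd3 had the 12th lowest ratio of all 6938 genes. In the ChAHP complex, where Chd4 pairs with Adnp and HP1 proteins, 3 of 4 partners were within 2-fold. Adnp was at 6.69 and 11.7 CPM, and Cbx5, an HP1 protein, was the fourth, at 104 and 48.7 CPM (1.09).

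The list of partners of Chd7 and Chd8 held MLL methyltransferases, their core subunits and Ctcf, with 8 of 9 genes at 10 CPM or more. Of the 8, 3 lay beyond 2-fold toward bone marrow and 0 toward fetal liver, and the median was -0.20. The same shares were 10.9% and 7.25% over all genes, and 19.6% and 2.49% over genes with transcripts of at least 6000 bases. The 3 were methyltransferases: Kmt2d at 24.3 and 119 CPM (-2.29), Kmt2c at 18.4 and 39.3 CPM (-1.10) and Kmt2a at 21.5 and 44.9 CPM (-1.06). These 3 were higher in bone marrow, as Chd8 was and unlike Chd7. The remaining methyltransferase of the list, Kmt2b, was within 2-fold, at 14.4 and 16.5 CPM (-0.20).

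The lists of other remodellers are read beside the same 10.9% and 7.25% of all genes, and nothing particular to them is read from counts this small. Of 21 SWI/SNF subunits 2 lay beyond 2-fold toward bone marrow and 0 toward fetal liver, and their median was -0.16. They were Arid1b, a targeting subunit, at 9.61 and 28.0 CPM (-1.54), and the ATPase Smarca2 at 18.3 and 44.2 CPM (-1.27), and the next in size was Arid1a at -0.92. Of 9 ISWI genes 2 did so toward bone marrow, Baz2b (-1.18) and Bptf (-1.03), 0 toward fetal liver, and the median was -0.07. Of 17 subunits of INO80, SRCAP and TIP60, 1 was higher by that measure in bone marrow (Ino80d, -1.05) and 1 in fetal liver (Ruvbl2, 1.04), with a median of 0.14. Among 6 other SNF2 ATPases Hells, a remodeller needed for DNA methylation, was at 92.9 and 41.7 CPM (1.16), 0 were higher in bone marrow and Atrx was at -0.38. On all these lists together no gene that reached this minimum had a ratio below that of Kmt2d.

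Genes whose level ran most like that of Chd3 were sought over 17 groups of cells (gates and ungated cells of both libraries with at least 50 cells), as Pearson's r of log2(CPM + 1) among 4874 genes that reached 20 CPM. The 5 highest were Tob2 (r of 0.990), Kdm6b (0.982), the Y-linked Eif2s3y (0.981), Nr4a2 (0.977) and Notch2 (0.974). The groups share cells, libraries and depth, so r is a description, and over both libraries it mostly follows the tissue. For Eif2s3y the sex of the cells, which differed between the libraries, was not held apart from tissue. Over the 8 bone marrow groups alone r was 0.939 for Tob2, 0.926 for Kdm6b, 0.891 for Eif2s3y, 0.800 for Nr4a2 and 0.929 for Notch2. Of the paralogs Chd2 was the nearest, with 0.902 over all and 0.867 over bone marrow groups. Chd4 had 0.791 and 0.664, Chd9 0.644 and 0.500, Chd8 0.622 and 0.389, and Chd1 0.290 and -0.135. Chd7 did not reach 20 CPM.

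Kdm6b, a histone demethylase gene that removes the repressive mark of the Polycomb system, also lies near Chd3, 29102 bases away on the same strand in GENCODE M21. Its levels were 56.5 and 311 CPM and its log2 ratio was -2.46. The genes around both went in either direction. Kcnab3, 10231 bases from Chd3, had 11 and 17 UMIs, a ratio of -2.24 (interval -3.48 to -1.06). Trappc1, 17480 bases from Chd3, was at 85.1 and 42.8 CPM (0.99) and Naa38, 26081 bases away, at 149 and 121 CPM (0.30), both higher in fetal liver. Tmem88 (-1.03), Cyb5d1 (-1.05) and Cntrob (-0.64) were under 10 CPM in both libraries. The nearest gene, named Chd3os in the deposited files, lies 632 bases from Chd3 on the other strand and had 382 and 232 UMIs, a ratio of -0.89. Its level was 4.18 and 7.75 CPM, far below that of Chd3 in bone marrow, and Chd3 overlaps no measured gene.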

How the data were processed

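Single-cell RNA of sorted αLPs was measured in 1 fetal liver and 1 bone marrow library. The deposited matrices hold raw UMI counts per gene and barcode; per the labels' protocols they come from 10x Chromium 3' libraries (v2 chemistry) sequenced on a NovaSeq 6000, and the authors kept only barcodes called as cells. Software version 3.0.1 is named in the matrices, per the file headers, and the submitters' processing notes name mm10 and Seurat 4.0 without a role. For the aligner, annotation release and strand setting nothing is stated in the sources used here. The deposited gene and barcode lists hold identifiers, of no unit that was analysed (other).

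Counts were summed over kept cells (at least 500 genes, at most 10% mitochondrial UMIs) and divided by the library total. No doublet caller was run, so doublets remained. Levels have exact Poisson intervals, log2 ratios exact conditional intervals and shares exact Clopper-Pearson intervals, all at 95%. They cover counting error only. Of 27998 gene identifiers 27645 matched GENCODE M21 (mm10), used for coordinates, lengths and sequences. Members, lists and gates were chosen with earlier results of these data known, and 1 further gate is not reported here. Named genes were the members, the other CHD genes, the 3 largest absolute ratios of each list among genes with at least 10 CPM, the 5 genes most like Chd3 and genes that overlap a member or lie next to Chd3. Ctcf and Kmt2b were named besides, to show what their list holds. Alternatives were 2 other scalings, a pseudocount of 1 CPM, other cell filters, depth windows, thinning, subsets of cells and other gates. Scripts ran in Python 3.11.15 with numpy 2.4.6 and scipy 1.17.1, and edgeR 4.0.16 gave the TMM factor; interval and thinning code was tested on simulated data.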

Additional observations from a re-analysis of the deposited data

Results flagged for a closer look

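Chd3 was higher in the shallower cells of bone marrow. Its fetal liver difference had the other sign, with an interval that nearly reached 0. The log2 difference of cells with 2000 to 5000 UMIs over cells with at least 10000 UMIs was -0.46 in fetal liver (interval -0.96 to -0.0003, from 40 and 733 UMIs) and 1.55 in bone marrow (interval 1.37 to 1.73, from 3295 and 276 UMIs). The difference between the 2 was not tested, since each tissue has 1 library. The deep bone marrow class holds 260 cells, of which 159 were in the Mki67 and Top2a gate. In fetal liver cells without a division UMI the same depth classes had Chd3 at 8.72 CPM (interval 5.93 to 12.4) and 12.2 CPM (10.1 to 14.6). In the fetal liver Mki67 and Top2a gate they had 9.95 CPM (2.05 to 29.1, from 3 UMIs) and 12.1 CPM (11.0 to 13.2). Within each of these kinds of fetal liver cells the intervals of the depth classes thus overlapped.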

How the results depend on the processing

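The Chd3 log2 ratio of -4.08 lay between -4.83 and -3.80 over 14 alternatives and was negative in each. It was -3.94 with TMM, -3.92 with the median ratio, -4.38 with each cell weighing the same, -3.97 with a pseudocount of 1 CPM, -3.93 in cells with at least 1000 genes, -4.83 in cells with 2000 to 5000 UMIs, -4.32 after thinning to 2000 UMIs and -4.29 without dividing cells. In cells with a Y-linked UMI and no Xist UMI, an alternative added after seeing the data, it was -3.87, and with the 5 shared lineage gates weighing the same, also added then, -3.80. The paralog median moved to -0.39 with those gates weighing the same, -0.38 with TMM and -0.35 with the median ratio, of which the last 2 shift the median of all genes upward by 0.135 and 0.162 log2 units. The gap between Chd3 and that median was -3.57, and it was -3.83 with each cell weighing the same, -4.29 at 2000 to 5000 UMIs, -3.80 after thinning, -3.86 without dividing cells and -3.33 in the Y-linked, Xist-free cells. The count of 3 members with a 2-fold or larger excess in bone marrow was 1 with TMM, with the median ratio, at 2000 to 5000 UMIs and with the shared gates weighing the same. Chd1 reversed from -0.14 to 0.018 with the median ratio. The median Chd3 ratio over gates, -3.82, was -3.46 at 3 UMIs of the gate genes, where 3 gates were compared, and -4.19 at 1 UMI in cells of 2000 to 5000 UMIs, where 2 were (added after seeing the data). The gap in the share of cells with a Chd3 UMI, 30.6 percentage points, was 19.2 after thinning to 1000 UMIs. Except for the scalings, whose shift is given, the cause of these moves was not tested. Gates on thinned cells gave no value, because no gate held 50 cells in both libraries. No paired analysis was possible because each tissue has 1 library. Depth limits Chd7 most, with 132 bone marrow UMIs in all.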
